A study of Mus musculus with 10 samples.

Results

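Motor proteins turn the energy of ATP into movement along the cytoskeleton, and their genes were examined here in peak lists of N6-methyladenosine (m6A) from mouse brain. The genes were chosen by name, as all genes listed with a peak whose symbol begins with Kif, Kifc, Klc, Dync, Dnah, Myo or Myh followed by the family number or letter. They number 58 of the 8516 genes listed, and comprise 28 kinesin genes, 11 dynein genes and 19 myosin genes. A further 49 protein-coding genes of the RefSeq table fit the naming rule and had no peak in either list, among them Kif2a, Dync2h1 and Myo1c. A missing peak does not measure expression, and no expression values were analysed here.

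The samples were cortex and hippocampus at postnatal day 5 from wild-type (WT) mice and from mice in which Mettl14 was knocked out (KO) with Nestin-Cre. METTL14 is the partner of the catalytic subunit METTL3 in the complex that writes m6A on mRNA. Nestin-Cre recombines in the neuroepithelial lineage of neurons and macroglia, so microglia and vessel cells of a tissue sample are outside its reach. WT had 3 immunoprecipitated (IP) and 3 input libraries and KO had 2 of each, for 10 samples in all, and the labels name both a tissue and a culture medium, so whether RNA came from tissue or from cultured cells is not settled. In m6A-seq an antibody against m6A enriches RNA fragments, and stretches enriched over input are called as peaks.

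Because the files hold a single consensus peak list for each genotype and give no library depths, WT and KO can be set side by side here but not tested against each other. Each listed peak has a gene name, a strand, the exonic blocks it covers and a deposited score read as a p-value or q-value, smaller being stronger. Coordinates are those of GRCm38, counted from 1. Of 8 neuron marker genes, 6 had a WT peak and each of the 6 had a WT peak overlapped by a KO peak, among them Rbfox3 with 3 of 3 peaks and Elavl3 with 2 of 5, where 20.6% of all genes with a WT peak had one.

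Kinesins carry cargo along microtubules, most of them outward into axons and dendrites. Cytoplasmic dynein moves cargo back toward the cell body, and its axonemal relatives bend motile cilia. Myosins work on actin, where class II molecules contract filaments and the other classes carry cargo or tether membranes. Neurons depend on these motors for axonal transport, for the migration of newborn cells and for the growth cone.

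Motor transcripts often still carried a peak in the KO list at the place of a WT peak. The WT list held 126 peaks in 48 motor genes. Of these peaks, 37 shared at least 1 exonic base on the same strand with a KO peak and are called retained, and 89 were not retained. This share was 29.4% (Wilson 95% interval 22.1 to 37.8), beside 12.9% of all 15009 WT peaks. It was 19.0% (all genes 6.26%) with a shared part of at least 50% of each peak, and 55.3% (all genes 28.6%) where as many of the strongest WT peaks were used as the KO list holds. At least 1 retained peak was found in 24 of the 48 genes (interval of the share 36.4 to 63.6%), beside 20.6% of all genes with a WT peak. Peaks in WT alone were listed for 21 motor genes, in both lists for 27 and in KO alone for 10. Over all listed genes the shares of these classes were 66.2%, 24.4% and 9.38%. The counts depend on list length, and with only as many of the strongest WT peaks as the KO list holds, 5 motor genes were in WT alone and 16 in KO alone. Only 3 were in KO alone after the weaker 50% of both lists was left out. The KO list held 71 motor peaks, and 46 of these lay over a WT peak, 64.8% (interval 53.2 to 74.9) beside 57.1% of all KO peaks, or 33.8% beside 25.6% with a shared part of at least 50% of each peak. Peaks and genes are not replicates, so the intervals hold counting error alone, and the higher motor shares were not tested against other genes.

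**Figure D1:**
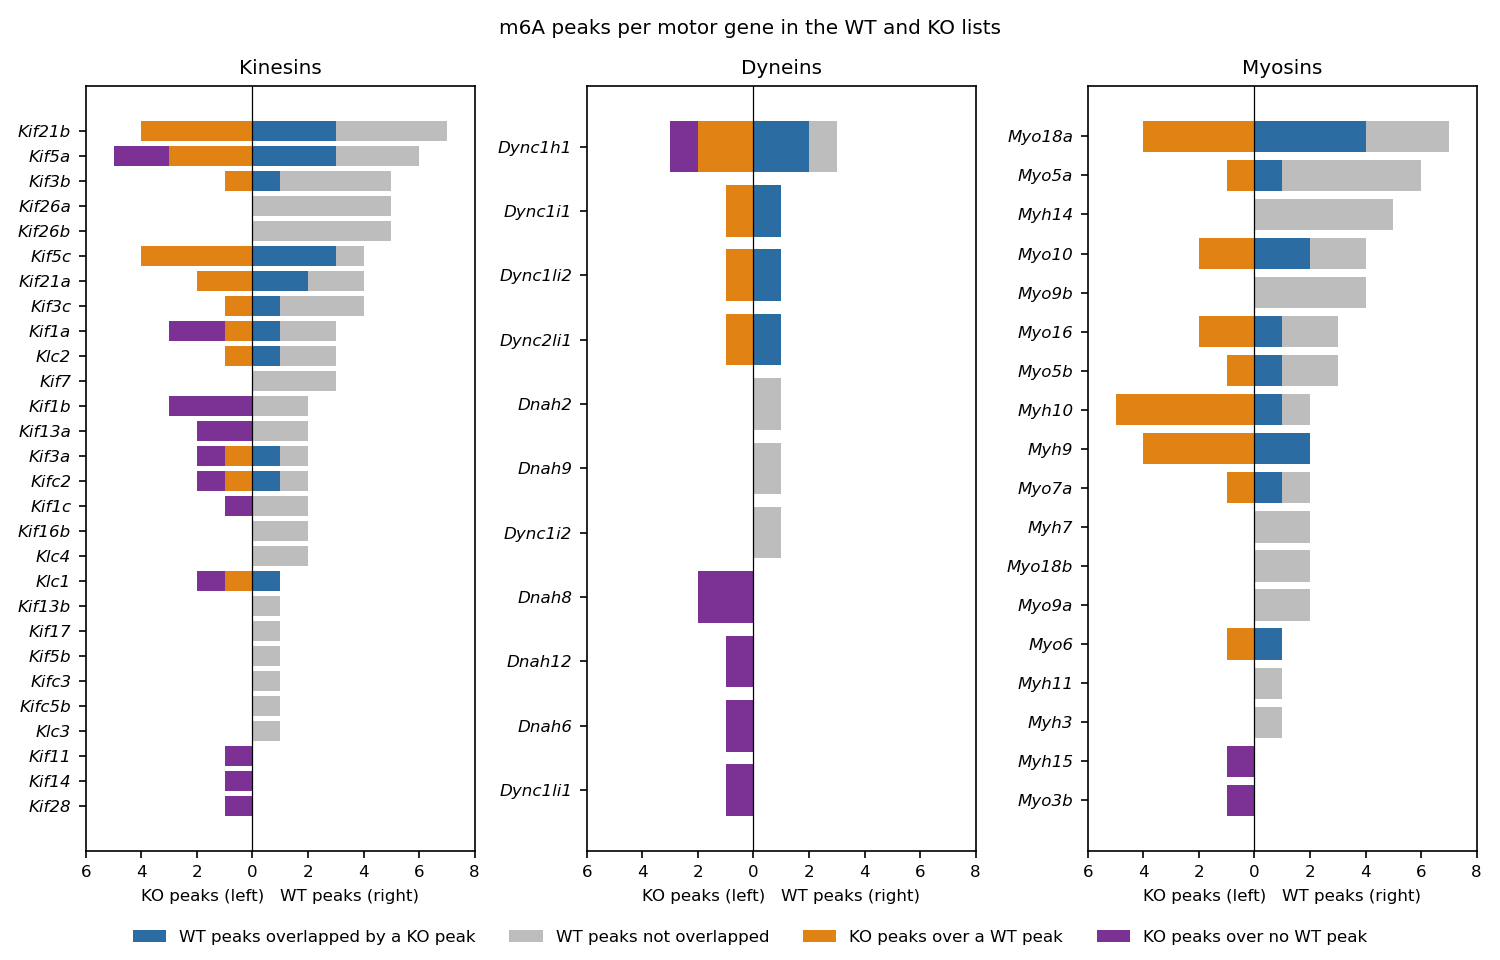
WT peaks (bars to the right) and KO peaks (bars to the left) per motor gene, split by whether a peak of the other list overlaps them. Of the genes with KO peaks alone 1 is counted in the text but not drawn. Kif21b and Myo18a have the most WT peaks, 7 each, and the genes at the foot of the panels have KO peaks alone.

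A gene with more WT peaks has more chances to hold a retained one, so the motor genes were also read by their number of peaks. Among genes with 1 WT peak, 5 of 16 motor genes had it retained, beside 10.5% of all such genes. With 2 or 3 WT peaks it was 10 of 19, beside 26.3%, and with 4 or more it was 9 of 13, beside 46.0%. The motor intervals were wide, 14.2 to 55.6%, 31.7 to 72.7% and 42.4 to 87.3%, and the last holds the value of all genes. Motor genes were also longer than other listed genes, with a median gene span of 87.4 kb beside 27.6 kb. They held a mean of 2.62 WT peaks per gene beside 1.96. The part of gene length in the retained share was not tested.

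Near the end of a gene the retained share of motor peaks was low and close to that of all genes. Of the 41 motor WT peaks with a midpoint within 5000 bases of the gene end, 3 were retained, 7.32% (interval 2.52 to 19.4), beside 9.35% over all genes. The 3 lay in Dync1h1, Dync1li2 and Kif5a. Of the 85 peaks farther from the gene end, 34 were retained, 40.0% (interval 30.2 to 50.6), beside 17.4% over all genes. The interval of the motor share held the value of all genes near the gene end and lay above it farther away. It treats peaks as independent although several lie in the same gene, and this difference by position was not tested. Motor peaks were also spread differently along genes. Within 5000 bases of the end lay 32.5% of motor WT peaks and 11.3% of motor KO peaks, beside 56.3% and 48.5% of all peaks, and within 1000 bases lay 7.94% and 5.63%, beside 15.9% and 16.1%.

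Retained motor peaks were mostly spread over several exons. A peak of 2 or more exonic blocks spans at least 1 intron of the gene, and 52.4% of motor WT peaks were of this kind beside 23.5% of all WT peaks. In the KO list the shares were 77.5% and 33.3%. Of the 66 motor WT peaks with 2 or more blocks, 29 were retained, 43.9% (interval 32.6 to 55.9), beside 28.9% over all genes. Of the 60 motor WT peaks with a single block, 8 were retained, 13.3% (interval 6.91 to 24.2), beside 7.97%. Of the 57 peaks with 2 or more blocks that lay over 5000 bases from the gene end, 29 were retained, beside 30.2% over all genes. None of the 9 such peaks nearer to the end was retained, which allows a share of up to 29.9% (Wilson), beside 25.8% over all genes. The median exonic width was 329 bases for retained motor peaks and 181 bases for the others, beside 359 and 181 bases over all genes. Wider peaks offer more bases to overlap, so width and block number are not separate from the overlap rule.

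**Figure D2:**
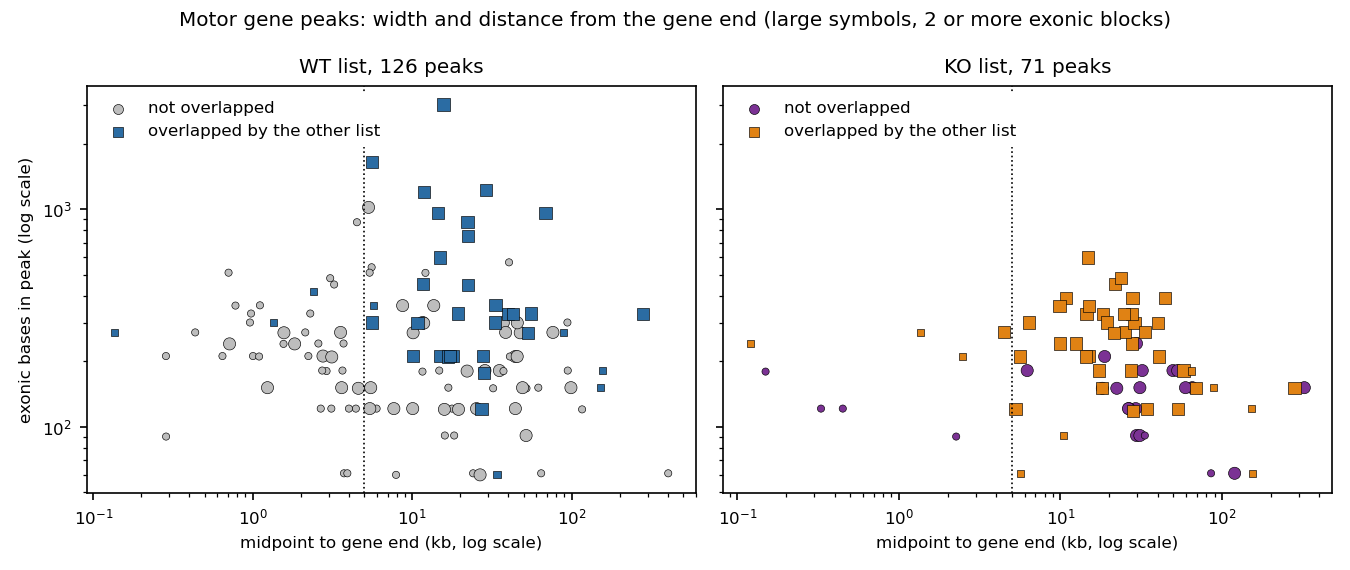
Exonic bases of each motor gene peak against the distance of its midpoint from the gene end (both log scales) in the WT and KO lists, with large symbols for peaks of 2 or more exonic blocks and a dotted line at 5 kb. Of the WT peaks left of the line 3 of 41 are overlapped by a KO peak, and of those to its right 34 of 85.

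By strength, the retained share of motor WT peaks was 53.8% in the strongest class and 8.7% in the class before the weakest. In the strongest 20% of the WT list by deposited score lay 39 motor peaks, of which 21 were retained, 53.8% (interval 38.6 to 68.4), beside 31.0% over all genes. In the following class it was 9 of 21, 42.9% (interval 24.5 to 63.5), beside 14.0%. The remaining classes held 2 of 18, 2 of 23 and 3 of 25, beside 9.49%, 6.43% and 3.54%. Their motor intervals began at 3.1%, 2.42% and 4.17%. The interval lay above the value of all genes in the strongest 2 classes, and narrowly in the weakest, where 3 peaks were retained. They include the peak at the start of Kif5c, met by a KO peak whose score, 5.4e-10, recurs at 76 KO peaks. The intervals treat peaks as independent although several lie in the same gene, and the classes were not tested.

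**Figure D3:**
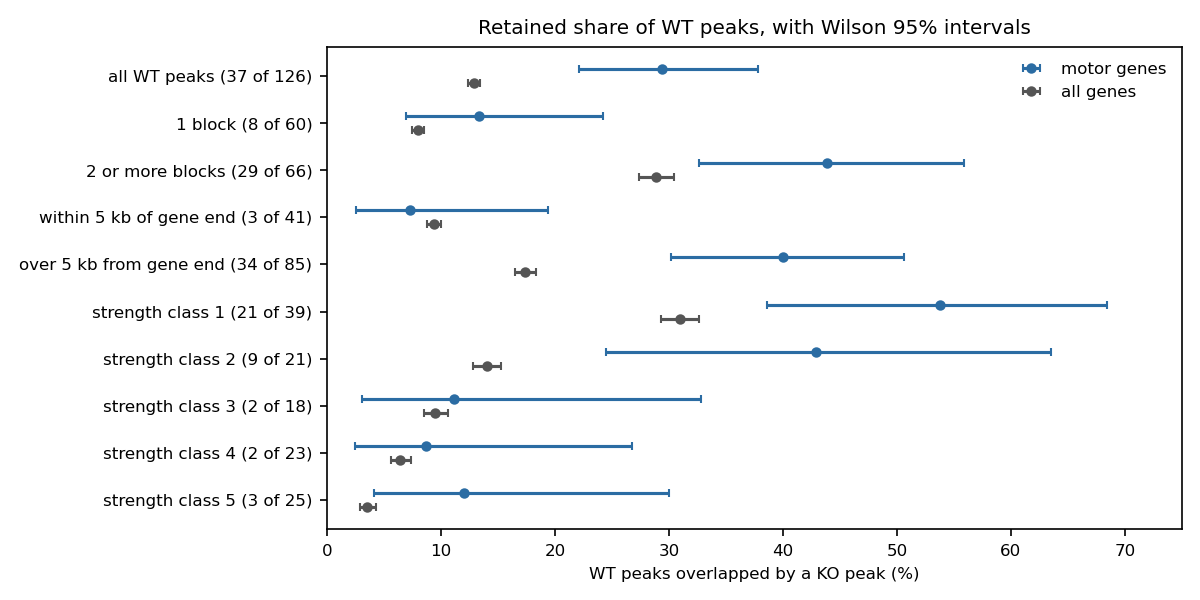
Retained share of WT peaks (points, with Wilson 95% intervals as bars) in motor genes and in all genes, by exonic blocks, distance from the gene end and class of strength, class 1 being the strongest 20%; labels give retained of all motor WT peaks. The motor share is 40.0% beside 17.4% over 5 kb from the gene end, and 7.32% beside 9.35% nearer to it.

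In 3 motor WT peaks a block began exactly at a transcript start of the RefSeq sequence table, and these starts are shown because they are where sequence for a listed peak was at hand. The Klc2 peak at its gene start is not among them. The sequences are from RefSeq (GRCm38.p6), plus strand, with 30 bases before the start in lower case and the opening 30 transcript bases, which lie inside the peak, in capitals.
Kif5c, chr2:49619256-49619315: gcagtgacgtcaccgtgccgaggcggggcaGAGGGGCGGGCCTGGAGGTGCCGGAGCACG
Myo5a, chr9:75071176-75071235: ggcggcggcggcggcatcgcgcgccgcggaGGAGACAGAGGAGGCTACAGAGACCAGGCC
Myo18a, chr11:77801268-77801327: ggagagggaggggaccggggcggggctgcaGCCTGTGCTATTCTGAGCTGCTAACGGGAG
The Kif5c peak (181 bases in WT, 61 in KO) and the Myo5a peak (151 and 121 bases) had the same start in both lists and ended earlier in the KO list, and the score of the Kif5c KO peak, 5.4e-10, recurs at 76 KO peaks. In Myo18a a block of 31 bases at this internal start was the second block of a WT peak of 271 bases that was not retained. Counted by gene start, 3 motor WT peaks began within 30 bases of it, in Kif5c, Klc2 and Dync2li1, and all 3 were retained (interval 43.9 to 100%), beside 22.2% of 490 such peaks over all genes. Over all genes, 417 WT peaks had a block that began at a transcript start of the table, and 24.2% of them were retained. The letters GGAC, a common core of m6A sites, did not occur on the transcript strand in the first 50 transcript bases at any of the 3 starts. They occurred there in 18.9% of all 32851 windows of the table, and on either strand in 33.3%. Among the 101 windows of motor genes the share on the transcript strand was 28.7%. The Myo18a block of 31 bases ends before the 50 bases do, and the Kif5c and Myo5a peaks run on past them.

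Conventional kinesin, or kinesin-1, pairs KIF5 heavy chains with light chains that bind cargo, and carries mitochondria and vesicles down the axon. Its heavy chain genes retained 6 of 11 WT peaks, 54.5% (interval 28.0 to 78.7), beside 12.9% of all WT peaks. Kif5a, which is enriched in neurons, on chromosome 10 from 127225695 to 127266348, retained 3 of 6. The strongest, a single block of 301 bases from 127226892 to 127227192 listed with a score of 0, was met by a KO peak of 271 bases with the same upper border. A Kif5a peak of 5 blocks and 300 bases was covered whole by a KO peak of 390 bases. Kif5c, also enriched in neurons, retained 3 of 4 peaks. They were the peak at its start, a peak of 331 bases on 3 blocks and a peak of 301 bases on 4 blocks. Of its 4 KO peaks 1 shared a single base with a WT peak. The Kif5c peak nearest the gene end, 481 bases long, was not retained. Kif5b, expressed in most cell types, had 1 WT peak of 301 bases on 5 blocks and no KO peak.

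The light chain genes had 7 WT peaks, of which 2 were retained, 28.6% (interval 8.22 to 64.1), beside 12.9% of all WT peaks. The single Klc1 peak, of 211 bases on 3 blocks on chromosome 12 from 111787593 to 111793693, lay whole inside a KO peak of 330 bases, and both were listed with a score of 0. In Klc2 the peak at the gene start was retained, with 91 of its 211 bases covered by a KO peak whose score, 1e-12, recurs at 22 KO peaks, and 2 peaks nearer the gene end were not. Without recurring scores Klc2 had no retained peak. Klc3 had 1 WT peak and Klc4 had 2, with no KO peak in either gene.

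Kinesin-2 builds cilia through a trimer of KIF3A, KIF3B and an accessory subunit, and KIF3C pairs with KIF3A in neurons. Kif3a gave the closest match between the lists among these genes. Its WT peak of 599 bases on 6 blocks, chromosome 11 from 53584388 to 53594374, and its KO peak, also of 599 bases on 6 blocks, were offset by 30 bases and shared 569. Kif3b retained 1 of 5 peaks, with 330 of 959 bases covered, and Kif3c 1 of 4, with 300 of 1227 bases covered. The Kif3b peaks that were not retained comprised 3 that ended 2636, 2127 and 540 bases before the gene end and 1 of 151 bases in the gene body. Kif17, which carries a subunit of the NMDA receptor in dendrites, had 1 WT peak of 270 bases and no KO peak.

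Kinesin-3 motors carry synaptic vesicle precursors and endosomes, and their genes retained 1 of 12 WT peaks, 8.33% (interval 1.49 to 35.4), near the 12.9% of all WT peaks. They held 11 KO peaks. The retained peak lay in Kif1a, the main carrier of synaptic vesicle precursors. It had 330 bases on 4 blocks, chromosome 1 from 93054917 to 93056214, and a KO peak of 300 bases shared its upper border. Kif1a had 2 further WT and 2 further KO peaks, none overlapping. Kif1b had 2 WT peaks and 3 KO peaks and none overlapped, the nearest KO peak lying 209 bases from a WT peak. Its WT peak of 241 bases near the gene end, with a score of 1e-315, had no KO counterpart. Kif13a had 2 WT and 2 KO peaks, at least 18439 bases apart. The score of 1 of these KO peaks, 1.6e-11, recurs at 20 KO peaks. Kif1c had 2 WT peaks, the longer of 1018 bases on 4 blocks, and 1 KO peak of 121 bases that lay 2303 bases away. The score of this KO peak, 7.9e-11, recurs at 21 KO peaks. Kif13b had 1 WT peak and the endosomal Kif16b had 2, with no KO peak in either.

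Kinesin-4 genes retained 5 of 14 WT peaks, 35.7% (interval 16.3 to 61.2), beside 12.9% of all WT peaks. The retained ones lay in the gene body. Kif21b, which limits microtubule growth in neurons, had 7 WT peaks on chromosome 1. The 3 peaks from 136149409 to 136160172, of 211, 871 and 211 bases, were retained and met by 4 KO peaks. The KO peak over the last of the 3 had a score, 4e-11, that recurs at 23 KO peaks. Without recurring scores 2 Kif21b peaks were retained. The 4 peaks within its last 5000 bases, of 121, 121, 331 and 331 bases, were not, although the last of them had a score of 0. The KO peak over the Kif21b peak of 871 bases was split in a stretch of 271 bases and another of 451. Kif21a retained 2 of 4, of 330 and 60 bases. Kif7, a regulator of Hedgehog signalling at the tip of the primary cilium, had 3 WT peaks, the best with a score of 1e-08, and no KO peak.

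Of the kinesins described next, Kif26a, Kif26b, Kifc3 and Kifc5b had WT peaks alone, as did 66.2% of all listed genes. Kif26a and Kif26b, atypical kinesins that bind microtubules without known motility, had 5 WT peaks each, over 1923 and 725 bases, and no KO peak. The Kif26a peaks ended between 5296 and 898 bases before the gene end, and those of Kif26b were spread from 360 bases after the gene start to 300 bases before its end. Kifc2, a neuronal kinesin of the class that moves to the minus end, retained 1 of 2 peaks, with 121 of 301 bases covered. Its other KO peak lay 59 bases from that WT peak. Kifc3 and Kifc5b had 1 WT peak each. Kifc5b has close copies, among them Kifc1, so its reads are hard to assign.

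Cytoplasmic dynein 1 is assembled on a heavy chain dimer with intermediate and light intermediate chains that hold cargo adaptors. Its genes retained 4 of 6 WT peaks, 66.7%, beside 12.9% of all WT peaks. With so few peaks the interval of this share was wide, and the difference was not tested. Dync1h1, the heavy chain gene, had a WT peak of 271 bases that ended at the last base of the gene, chromosome 12 from 110666674 to 110666944. The KO list had a peak of 241 bases with the same end, so it was the 1 retained peak among 10 motor peaks within 1000 bases of a gene end, beside 6.21% over all genes. A second Dync1h1 peak, of 211 bases on 2 blocks, shared 151 bases with a KO peak. The single peaks of Dync1i1 (329 bases on 3 blocks) and Dync1li2 (419 bases on 1 block) were retained, with 150 and 210 bases covered. The single peak of Dync1i2, of 270 bases on 3 blocks and with a score of 1e-122, was not. Dync1li1 had a KO peak alone, of 121 bases on 2 blocks. Dync2li1, of the dynein that returns material from the tip of cilia, had a WT peak 29 bases after its start, of 177 bases, of which 118 lay in a KO peak.

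Axonemal dynein heavy chains had few peaks, with 5 of the 15 such genes of the RefSeq annotation listed. Dnah2 and Dnah9 had 1 WT peak each, with scores of 1.4e-07 and 1.4e-06, and no KO peak. Dnah6, Dnah8 and Dnah12 had KO peaks alone, as did 9.38% of all listed genes. These peaks measured 61 to 241 bases, and the longest, in Dnah8, had a score of 1e-35. The scores of the other Dnah8 peak, 4e-14, and of the Dnah12 peak, 1.2e-09, recur at 24 and 21 KO peaks. Of 10 marker genes of motile ciliated cells, 5 had a WT peak, among them Foxj1 with 4 peaks and none retained. Rsph4a alone had a retained peak (1 of 2), where 20.6% of all genes with a WT peak had one.

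Nonmuscle myosin II drives the contraction of the cell cortex in migrating neurons and growth cones. Its genes held the widest motor peaks. Myh10, the main form in neurons, had a WT peak of 3024 exonic bases on 19 blocks, chromosome 11 from 68787350 to 68814456. It was covered by 5 separate KO peaks of 210 to 360 bases, which together held 1590 bases, 52.6% of it. A second Myh10 peak, of 240 bases nearer the gene end, was not retained. Myh9 had 2 WT peaks of 1649 bases on 11 blocks and 1200 bases on 8 blocks, each overlapped by 2 KO peaks that covered 34.7% and 37.6% of the bases. Myh14 had 5 WT peaks and no KO peak, and its scores ran from 2e-15 to 1.5e-05, the latter the weakest of any motor WT peak. The muscle genes Myh3, Myh7 and Myh11 had 1, 2 and 1 WT peaks and no KO peak, and Myh15 had 1 KO peak alone. Of 10 markers of striated muscle 2 had a WT peak, and of 6 smooth muscle markers 2 did. None of these genes had a retained peak, beside 20.6% of all genes with a WT peak, and so few genes cannot be told from that share. Acta2 had 2 KO peaks alone.

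**Figure D4:**
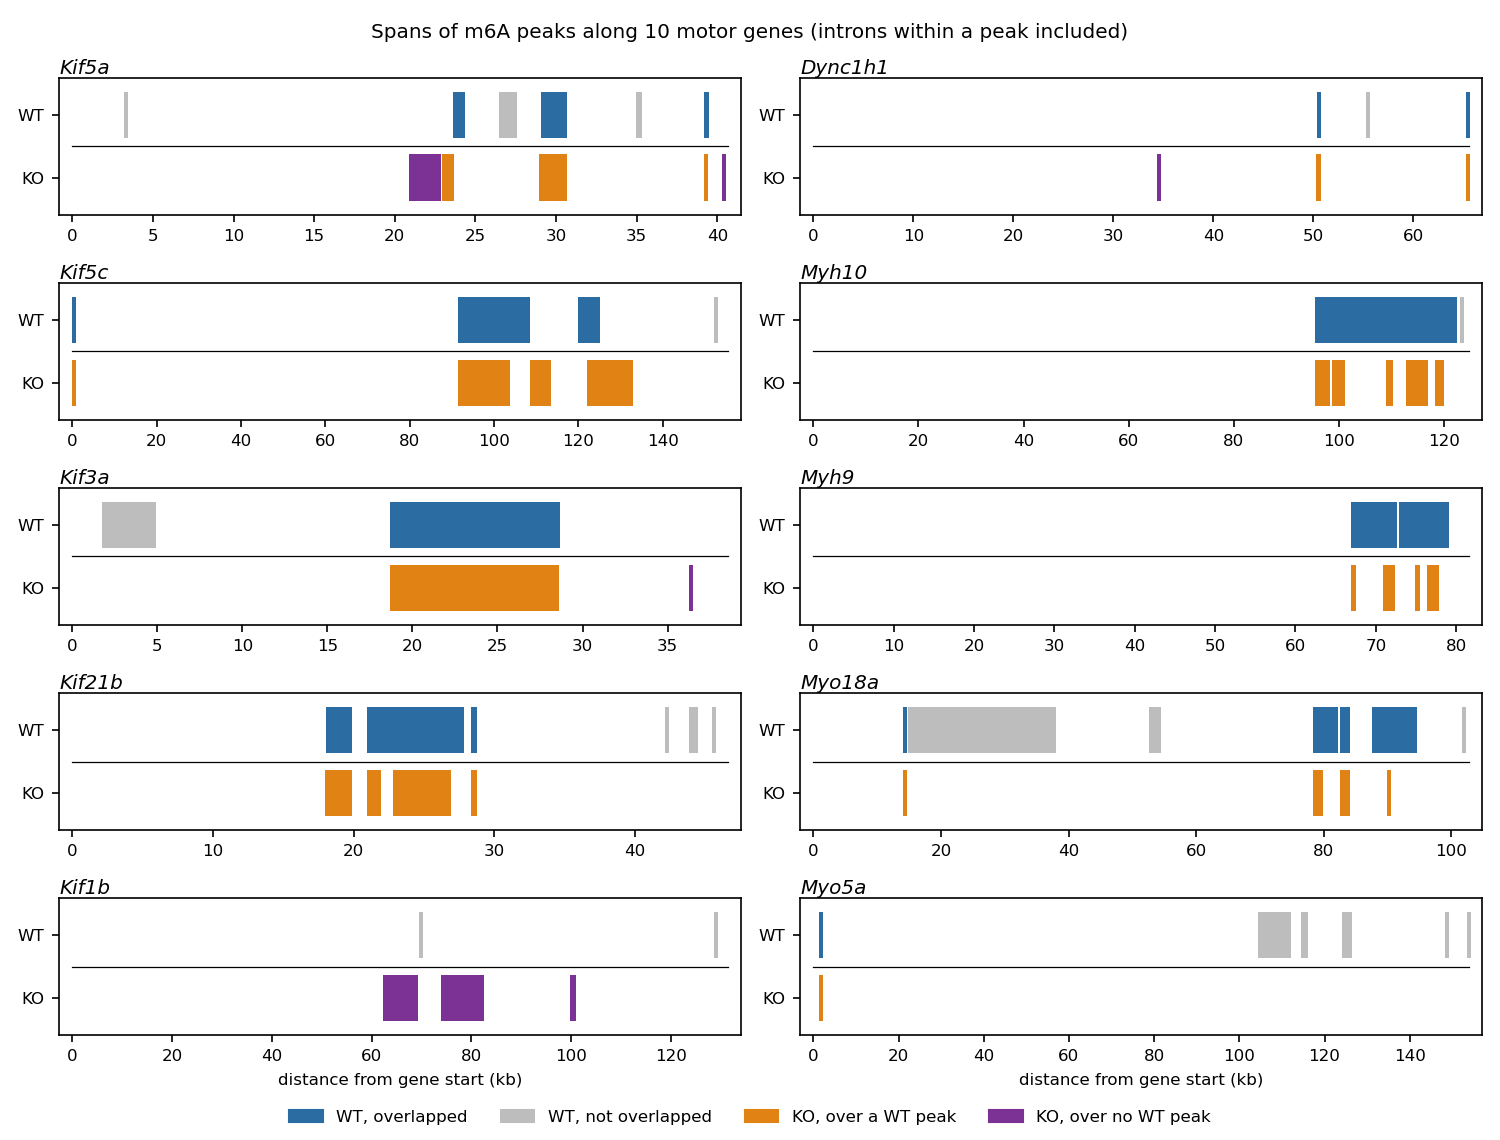
Spans of WT peaks (upper row) and KO peaks (lower row) along 10 motor genes, as distance from the gene start in kb, coloured by overlap; very short spans are widened to stay visible. The 5 KO peaks of Myh10 and the 4 of Myh9 lie under their wide WT peaks, while the WT peaks nearest the gene end of Kif5c, Kif21b, Myo18a and Myo5a are not overlapped.

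Among unconventional myosins, Myo18a had the most peaks. This gene, whose product binds the Golgi, retained 4 of 7 WT peaks on chromosome 11. They were a peak of 271 bases on 1 block from 77777265 to 77777535 and 3 adjoining peaks of 751, 331 and 451 bases on 4 to 7 blocks. The peak of 301 bases near its gene end was not retained. Myo5a, which draws endoplasmic reticulum into dendritic spines, had 6 WT peaks and retained the peak at its internal start alone. Its peak of 510 bases with a score of 0 was among those not retained. Myo5b, a carrier of recycling endosomes, retained 1 of 3 peaks, and the single peak of Myo6, the myosin that moves to the minus end of actin, shared 270 of its 449 bases with a KO peak.

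Myo10, which forms filopodia, retained 2 of 4 peaks, of 361 bases each, with 271 and 61 bases covered. Myo7a, known from hair cells, retained 1 of 2, a peak of 121 bases inside a KO peak of 181 bases. Myo16, a myosin of neurons linked to phosphoinositide 3-kinase signalling, retained 1 of 3. That peak of 960 bases was overlapped by KO peaks of 151 and 180 bases. The score of the latter KO peak, 4e-12, recurs at 21 KO peaks. The class IX genes, whose products carry a domain that activates GTP hydrolysis by small GTPases, had 6 WT peaks and no KO peak, with 4 in Myo9b and 2 in Myo9a, the latter including a peak with a score of 1e-188. Myo18b had 2 WT peaks and none in the KO list. Myo3b had 1 KO peak and none in WT.

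Some paralogs, close or more distant, had different counts in the KO list and others alike ones, and the examples were picked after their values were seen. Kif5a and Kif5c retained 3 peaks each and Kif5b none of 1. Kif21b and Kif21a retained 3 of 7 and 2 of 4, while Kif7 retained none of 3. Myh9 retained both of its peaks and Myh14 none of 5, Klc1 retained its single peak and Klc3 did not, and the same held for Dync1i1 and Dync1i2. Alike were Kif26a and Kif26b, Myo9a and Myo9b, and Klc3 and Klc4, with no retained peak in any of them, and Kif3b and Kif3c, and Myo5a and Myo5b, with 1 retained peak each. All peaks of Myh14 and Kif7 lay in strength classes 4 and 5, where 6.43% and 3.54% of all WT peaks were retained. Those of Myh9 lay in classes 1 and 2, as did the single peaks of Klc1, Klc3, Dync1i1 and Dync1i2. Where at least 50% of the peak had to be covered, Myh9, Dync1i1, Kif3b, Kif3c and Myo5b had no retained peak. With 1 list per genotype none of these comparisons could be tested.

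KO peaks over WT peaks were usually smaller pieces of them. Of the 46 overlapping pairs of motor peaks, 35 had the KO peak wholly inside the WT peak, 76.1% beside 76.0% over all genes. The KO peak was the wider in 7 pairs, 15.2% beside 9.68%, among them Klc1, Myo7a and a Kif21a peak of 60 bases under a KO peak of 120. No pair had both borders in common, while 17 had 1. Over all genes, 60 of 2107 pairs had both borders in common and 579 had at least 1. The share of a retained motor peak that KO peaks covered ranged from 16.9% to 100%, with a median of 60.1%. Summed over motor genes, exonic peak length was 39526 bases in WT and 14983 in KO, and 26.0% of the WT bases were also in a KO peak, beside 9.75% over all genes.

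KO peaks elsewhere numbered 25 in motor genes. Of these, 14 lay in 9 genes with a WT peak, at a median of 5896 bases from it along the chromosome (59 to 27754), and 10 of the 14 had 2 or more blocks. The other 11 lay in the 10 genes without a WT peak, 15.5% of motor KO peaks beside 22.8% of all KO peaks, and measured 61 to 241 bases. These genes included Kif11 and Kif14, motors of spindle and cytokinesis, with 1 peak each of 91 and 181 bases, and Kif28 with 1 of 179 bases. Of the 11 peaks 6 carried a score that at least 20 KO peaks share, such as 9.1e-07 in both Myh15 and Myo3b, which recurs 75 times. Of all KO peaks 21.9% carried such a recurring score, and without these peaks 5 motor genes instead of 10 had KO peaks alone. Of 10 markers of dividing cells, 3 had WT peaks, among them Mki67 with 3 and Cenpf with 3, while Bub1 had a KO peak alone. None of the 3 genes had a retained peak, beside 20.6% of all genes with a WT peak.

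Partners of the motors gave a mixed picture. Of 12 genes of dynactin and dynein regulators, 8 were listed in WT and 4 had a retained peak. Dctn1, the largest dynactin subunit, retained 2 of 3 peaks, and the dynein regulators Pafah1b1 and Ndel1 retained 1 of 1 and 1 of 2. The single peak of Dctn2 was not retained. Of 9 dynein light chain genes, 4 were listed in WT and 1 had a retained peak, Dynll2 with 2 of 4, while Dynlrb1 retained none of 2. Of 36 adaptor and cargo linker genes, 28 were listed in WT and 11 had a retained peak. Among them were the liprin gene Ppfia3 (2 of 6), the cargo linker gene Kidins220 (1 of 4) and the dynein adaptor gene Bicdl1 (2 of 2). The dynein adaptor genes Bicd2 and Bicd1 had 5 WT peaks each and no KO peak. Of 16 genes of myosin light chains, their kinases and phosphatase, 8 were listed in WT and 1 had a retained peak, Ppp1r12c (1 of 2), while the kinase genes Rock2 and Rock1 retained none of 4 and 2. These counts stand beside 20.6% of all genes with a WT peak and were not tested.

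Cells that Nestin-Cre does not target would keep METTL14, and their marker genes were examined beside the motor genes. Of 8 microglia markers, 5 were listed in WT and 2 had a retained peak, Siglech and Cx3cr1. Of 8 endothelial markers, 4 were listed in WT and 1 had a retained peak, Cdh5 with 2 of 3. Over all genes with a WT peak the share was 20.6%. The number of these cells in the samples is unknown, and their part in the retained motor peaks was not tested.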

How the data were processed

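The authors deposited 2 consensus peak lists, 1 per genotype, per the labels. STAR and the build GRCm38 are named in the submitters' processing notes. How peaks were called and libraries combined is not stated in the sources used. The deposited score was taken as a p-value or q-value, since no score exceeded 0.00015, and was used to rank or filter peaks within a list.

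Entries of a list sharing exonic bases on the same strand were merged (15091 WT entries to 15009 peaks, 3733 KO entries to 3673). The span of each gene was taken from RefSeq (GRCm38.p6), in which all 58 motor genes were found. Distances to the gene end use these spans and do not tell untranslated from coding sequence. The overlap code was tested on simulated peaks, and Python 3.11.15 was used. With 1 list per genotype, no test, replicate error or depth was available, and shares carry Wilson 95% intervals. Named genes were those with a retained peak, with most WT peaks (12 genes), with KO peaks off a WT peak, and the leading gene of each role group. For other lists they were up to 3 genes with a retained peak and up to 2 without. The remaining motor genes, the neuron and other cell markers and the paralog examples were named after their values were seen, as were the windows of transcript starts, block classes and strength classes. The members and lists were chosen with earlier results of these data known. Some genes that the rule takes are counted but not named here. Alternatives changed the overlap asked for, the list lengths, the recurring scores, the strand, the blocks and the merging.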

Additional observations from a re-analysis of the deposited data

How the results depend on the processing

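No paired analysis was possible because each genotype has 1 pooled list, and for this reason no replicate could be left out. Whole spans, a gap of 100 bases between them, overlap without regard to strand and unmerged entries kept the motor shares within their intervals and the 24 genes with a retained peak the same. With 50% of the peak covered, 19.8% of motor WT peaks and 33.3% of motor genes were retained (all genes 6.83% and 11.7%). With 50% of both peaks shared, these were 19.0% and 31.2% (6.26% and 10.9%), 33.8% of motor KO peaks lay over a WT peak (all 25.6%), and 15 genes kept a retained peak. Dync1i1, Kif3b, Kif3c, Kifc2, Klc2, Myh10, Myh9, Myo16 and Myo5b did not. With only as many of the strongest WT peaks as the KO list holds, the 3 motor shares were 55.3%, 69.2% and 49.3% (all 28.6%, 34.3% and 32.5%), with 5 genes in WT alone and 16 in KO alone. With the stronger 50% of each list, 80.0% of motor KO peaks lay over a WT peak (all 61.7%), and 3 genes had KO peaks alone. Without recurring scores 5 genes had KO peaks alone, and Klc2 had no retained peak. The share of motor WT peaks near the gene end was 3.17% with 500 bases and 32.5% with 5000 bases. A longer WT list offers more peaks to overlap, and a wider window holds more peaks by construction.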
